A study of Homo sapiens with 15 samples.

Results

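The 10 genes described here are classical members of the cellular response to low oxygen: HIF1A, EPAS1, EGLN3, VEGFA, ADM, ANGPTL4, CA9, NDRG1, BNIP3 and P4HA1. They were taken by symbol from the 19845 gene names listed for each library, and all 10 were found. Messenger RNA was sequenced from HCC1954, an established HER2-positive human breast cancer cell line, in 15 libraries. The parental line (Pa) had 3 libraries. Cells of the same line with tropism for the brain had 4 libraries in each of 3 groups: synchronous metastatic cells (S-BM), latent or residual cells (Lat) and metachronous metastatic cells (M-BM). All cells, Pa included, had been cultured overnight in a medium called R3F before RNA was taken, so no library holds RNA taken directly from brain or from a tumor, and the sources used here do not state the oxygen conditions. How many animals or cultures stood behind a group is not given either, so p-values measure only the spread between these libraries, which may be technical.

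As background, cells sense oxygen through hypoxia-inducible factors (HIF). HIF1A and EPAS1 encode the alternative alpha subunits, which pair with ARNT or its relative ARNT2 and bind DNA at the core letters ACGTG or GCGTG. When oxygen is ample, prolyl hydroxylases of the EGLN family mark the alpha subunits for destruction through the VHL ubiquitin ligase, so HIF activity is set largely at the protein level and the alpha subunits' mRNA is not a readout of it. EGLN3 is itself a HIF target. The other 7 genes are well known targets: VEGFA, ADM and ANGPTL4 encode secreted proteins acting on blood vessels and lipid handling, CA9 a carbonic anhydrase at the cell surface, NDRG1 a stress-regulated cytoplasmic protein, BNIP3 a mitochondrial receptor for mitophagy, and P4HA1 the catalytic subunit of a collagen prolyl hydroxylase.

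The stretches of 250 bases before the gene start (RefSeq, GRCh38.p14) are shown for 6 of the 10 genes, because they hold or lack the HIF core letters and belong to genes that moved in opposite directions or were near 0. Each is printed 5′ to 3′ on the gene's own strand, with letters matching ACGTG or GCGTG in capitals; a match on the other strand reads CACGT or CACGC here. The stretches lie at chr10:131981924-131982173 (minus strand) for BNIP3, chr11:10304823-10305072 (plus) for ADM, chr19:8363905-8364154 (plus) for ANGPTL4, chr10:73096867-73097116 (minus) for P4HA1, chr14:33951075-33951324 (minus) for EGLN3 and chr9:35673678-35673927 (plus) for CA9.
BNIP3: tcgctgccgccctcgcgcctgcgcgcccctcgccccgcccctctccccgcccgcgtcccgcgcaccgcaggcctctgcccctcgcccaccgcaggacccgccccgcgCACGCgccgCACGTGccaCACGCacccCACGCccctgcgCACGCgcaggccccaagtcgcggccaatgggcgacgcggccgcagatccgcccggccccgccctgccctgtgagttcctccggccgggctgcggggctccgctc
ADM: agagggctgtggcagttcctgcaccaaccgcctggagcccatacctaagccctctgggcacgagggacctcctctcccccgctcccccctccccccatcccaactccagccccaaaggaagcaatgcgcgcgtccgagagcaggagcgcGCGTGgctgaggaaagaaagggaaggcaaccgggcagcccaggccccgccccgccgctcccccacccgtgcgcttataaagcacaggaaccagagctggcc
ANGPTL4: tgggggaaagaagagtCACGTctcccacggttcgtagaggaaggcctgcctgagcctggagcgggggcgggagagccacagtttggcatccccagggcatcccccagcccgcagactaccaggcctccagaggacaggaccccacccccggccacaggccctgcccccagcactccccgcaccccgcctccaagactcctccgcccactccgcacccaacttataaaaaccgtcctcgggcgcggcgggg
P4HA1: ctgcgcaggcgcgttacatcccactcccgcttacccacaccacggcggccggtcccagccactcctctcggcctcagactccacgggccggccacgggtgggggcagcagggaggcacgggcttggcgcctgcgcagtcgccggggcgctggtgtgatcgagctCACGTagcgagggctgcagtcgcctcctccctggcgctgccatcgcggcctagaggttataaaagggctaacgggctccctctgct
EGLN3: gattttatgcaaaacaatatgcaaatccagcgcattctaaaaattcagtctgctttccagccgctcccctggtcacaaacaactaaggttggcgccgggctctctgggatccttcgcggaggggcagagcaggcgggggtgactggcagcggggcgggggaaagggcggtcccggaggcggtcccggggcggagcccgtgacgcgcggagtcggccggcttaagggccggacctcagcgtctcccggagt
CA9: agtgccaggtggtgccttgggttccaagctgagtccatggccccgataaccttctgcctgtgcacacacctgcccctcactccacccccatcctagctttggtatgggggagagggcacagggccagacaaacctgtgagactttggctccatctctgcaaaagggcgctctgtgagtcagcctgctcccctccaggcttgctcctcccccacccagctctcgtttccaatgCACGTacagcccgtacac
The search covered both strands of 300-base windows, 250 bases before to 50 after the start, and 8 of the 10 genes had an entry in the promoter table; VEGFA and NDRG1 had none. BNIP3 held 6 matches, at positions −143 to −100 from the start, and its ACGTG matches on the plus strand (−133 to −129) and the minus strand (−134 to −130) overlap in the palindrome CACGTG. ADM held 1 GCGTG (−101 to −97). ANGPTL4 (−234 to −230), P4HA1 (−86 to −82) and CA9 (−18 to −14) each held 1 ACGTG on the minus strand, HIF1A (−204 to −200) and EPAS1 (−117 to −113) each held 1 GCGTG, and EGLN3 held no match in its window. Such matches are common: of 35114 windows, 21.4% held ACGTG, 36.5% GCGTG and 48.4% either. Of the 7383 windows of tested genes, 28% held ACGTG, 52.2% GCGTG and 64.9% either. A match is a description of letters and not a measured binding site. Sequence outside the windows was not searched, so a window without a match does not show that a gene lacks such sites.

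Levels are the deposited normalized counts, in which library totals lay between 963150 and 1026297, and they rest on 13.25 to 21.84 M reads assigned to genes per library. A level of 3 reads corresponds to 0.136 to 0.225; such floors cover counting error only. All 9 markers of HER2-positive breast epithelium were detected in every group. GFAP and ALDH1L1 (astrocytes), SNAP25 (neurons), MOG (oligodendrocytes), AIF1 (microglia) and COL1A2 and COL3A1 (fibroblasts) had at most 3 reads in any library. Other markers of these cell types were detected, with S-BM means of 213 for SLC1A3, 56.7 for TUBB3, 94 for MBP and 16.4 for CD68. The same group held COL1A1 at 4.71 and the endothelial genes CDH5, PECAM1 and VWF at 8.91, 6.57 and 3.64. Pa carried such markers too. Summed over each list, astrocyte markers were at 315.3 to 428.3 in Pa and 172.8 to 325.2 in S-BM. Oligodendrocyte markers were at 104.3 to 110.6 and 75.9 to 106.5, and endothelial markers at 20.4 to 28.3 and 13.4 to 26.8, in this order. Neuron and microglial markers reached higher levels in S-BM, and fibroblast markers in Pa. Detection of the markers was therefore not particular to brain-tropic libraries, and it does not settle whether other cell types were present. The libraries labelled S-BM 3 and S-BM 4 stood apart and went against the HER2-positive label: ERBB2, which encodes HER2, was at 353.1 and 367.3 there against 4109.3 and 4642.4 in S-BM 1 and S-BM 2. The read counts of these libraries also differed from each other by 3.4 times sampling noise, against 33.63 to 67.67 times for the other S-BM pairs; Lat 1 and Lat 2 differed by 3.88 times. Results are therefore also given without S-BM 3 and S-BM 4, and whether ERBB2 level plays a part in them was not tested. In bulk RNA, fewer cells expressing a gene and less RNA per cell cannot be told apart. Pa values come from a separately normalized table and are shown after multiplication by 1.0062, as levels with no test.

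The hypoxia genes did not move as a block. In Lat compared with S-BM, VEGFA, ADM, EPAS1 and BNIP3 rose while EGLN3, P4HA1 and HIF1A fell; in M-BM compared with S-BM, VEGFA, ADM, EPAS1 and BNIP3 rose while EGLN3 and P4HA1 fell, and no gene of the set passed the test between M-BM and Lat. ANGPTL4 had no read in any S-BM library and appeared in Lat and M-BM, CA9 was at the detection limit everywhere, and NDRG1 varied too much between libraries to pass. Among 8 hypoxia genes above the filter on low values (a level of at least 10 in at least 4 of 12 libraries), 7 passed when Lat was compared with S-BM (4 higher, 3 lower; limma, Benjamini-Hochberg adjusted p below 0.05), where 59.7% of all 9646 genes tested passed (30.2% higher, 29.4% lower). In M-BM against S-BM 6 of 8 passed (4 higher, 2 lower), where 52.7% of all genes tested passed (26.9% higher, 25.8% lower). Since most genes tested passed in both comparisons, these counts do not set the hypoxia genes apart; EGLN3 entered the test only through its S-BM level, and its difference was in that sense preset. All fold changes are on the log2(value + 1) scale. The median log2 fold change of the 8 was 0.49 and 0.40, against 0.01 for all genes in both comparisons, which share the S-BM libraries. The 8 values were spread from −2.11 to 1.38 in Lat and from −1.68 to 1.12 in M-BM, so these medians do not show a shared shift. For 41 further hypoxia-inducible genes the medians were −0.04 and −0.02.

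**Figure D1:**
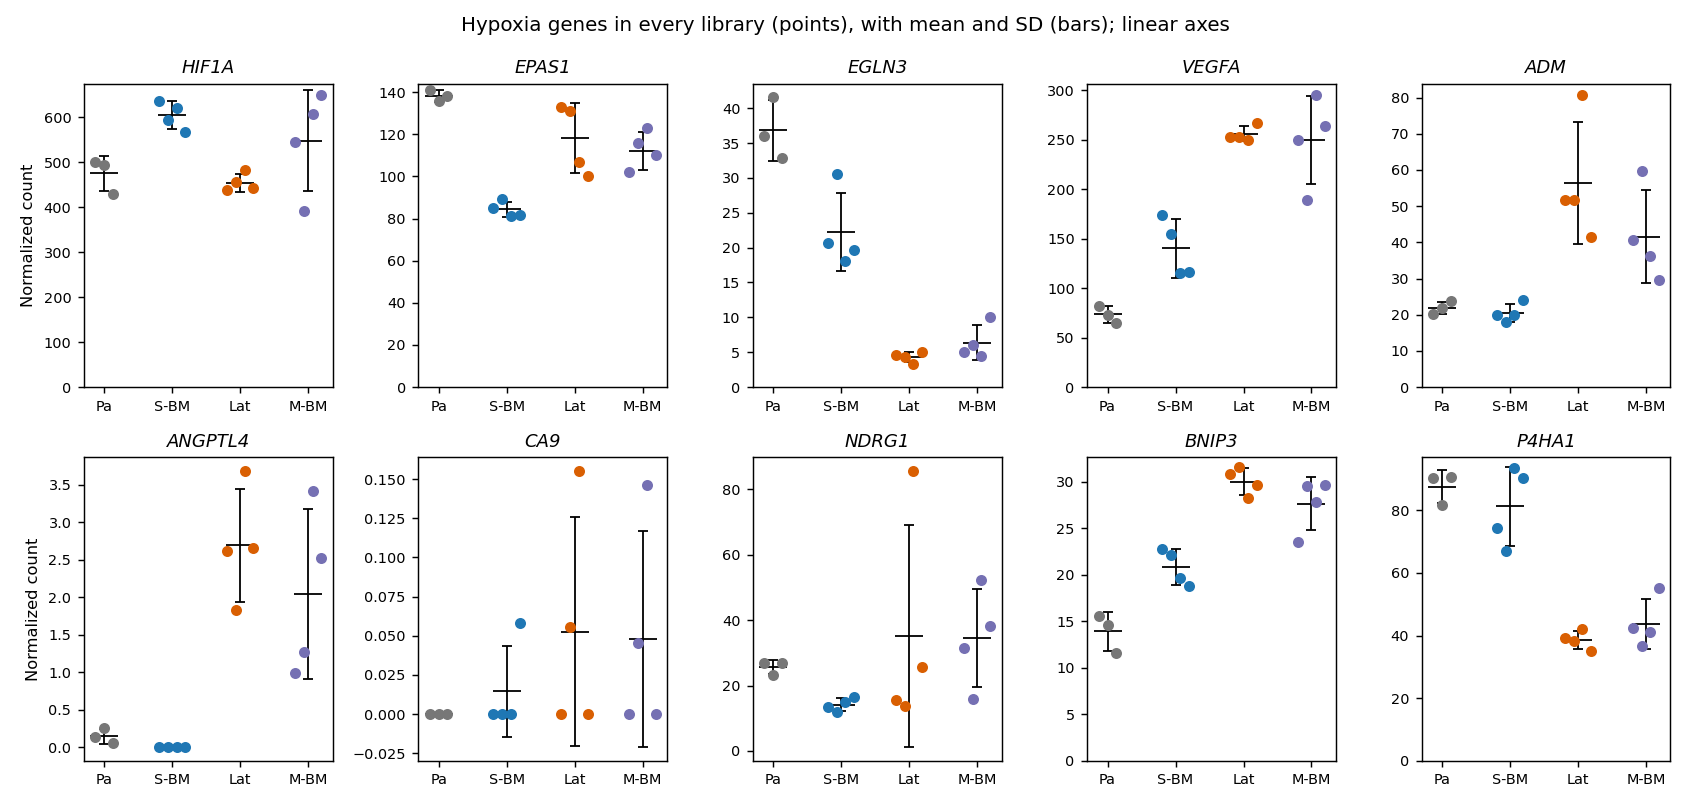
Normalized count (linear axes) of each of the 10 hypoxia genes in every library of Pa, S-BM, Lat and M-BM, Pa scaled; points are libraries and bars are the mean and SD. EGLN3 and P4HA1 are highest in Pa and S-BM, VEGFA and BNIP3 are highest in Lat and M-BM, and the CA9 axis ends below 0.2.

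Per exon length (reads per kilobase per M reads, with exon lengths from GENCODE), the order of the genes themselves differed between groups. HIF1A was the most abundant in each of them, with means of 142 ± 7.61 (S-BM), 108 ± 6.57 (Lat) and 128 ± 25.8 (M-BM; SD, n = 4) and of 109 ± 8.82 in Pa (n = 3). In S-BM it was followed by VEGFA (37), P4HA1 (27.7) and EPAS1 (16.3), then ADM (7.53), BNIP3 (7.27), EGLN3 (4.55) and NDRG1 (3.77). In Lat the order was VEGFA (68.6), EPAS1 (23), ADM (21), P4HA1 (13.4), BNIP3 (10.6), NDRG1 (9.58), ANGPTL4 (1.45) and EGLN3 (0.894). By these means EGLN3 stood above NDRG1 in S-BM (SD 1.1 and 0.547), but the order was reversed in S-BM 3 and S-BM 4. In Lat it stood below ANGPTL4 (SD 0.138 and 0.439). In Pa, P4HA1 (29.1) and EPAS1 (26.1) exceeded VEGFA (19).

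HIF1A (chromosome 14, 61695513 to 61748258, GRCh38), the alpha subunit present in most cells, stood at 636.3, 593.6, 619.9 and 565.8 in S-BM 1 to 4, at 437.3, 455.7, 481.7 and 443.1 in Lat 1 to 4, at 543.8, 390.5, 606.1 and 650.0 in M-BM 1 to 4, and at 500.7, 494.4 and 429.7 in Pa 1 to 3. Every Lat library was below every S-BM library, whereas M-BM spanned both, with M-BM 2 the lowest of all 15 libraries. The Lat level (454 ± 19.7) was 1.33-fold below that of S-BM (604 ± 30.9; log2 fold change −0.41, SE 0.13, limma adjusted p = 0.0144). It did not pass in M-BM (548 ± 113; −0.17, limma adjusted p = 0.299). The call in Lat was lost when the closest libraries (S-BM 3 and S-BM 4; Lat 1 and Lat 2) were averaged pairwise (−0.41, limma adjusted p = 0.052), and it held without S-BM 3 and S-BM 4 (−0.44, 0.0437). The kit does not mark strand, and 117 exon bases of HIF1A are shared with its antisense gene HIF1A-AS1 and 148 with AL137129.1 on the same strand.

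EPAS1 (chromosome 2, 46297407 to 46386697), which encodes the alpha subunit also called HIF-2 alpha, moved the other way. It stood at 84.9, 89.2, 81.2 and 81.9 in S-BM 1 to 4, at 133.1, 131.0, 107.3 and 100.3 in Lat 1 to 4, at 101.7, 115.6, 122.9 and 109.7 in M-BM 1 to 4, and at 141.3, 135.6 and 137.8 in Pa 1 to 3. All 4 S-BM libraries were below all others, and Pa was above them all. EPAS1 rose 1.38-fold in Lat (log2 fold change 0.47, SE 0.10, limma adjusted p = 0.00139) and 1.33-fold in M-BM (0.41, SE 0.10, limma adjusted p = 0.0045) against S-BM. When S-BM 3 and S-BM 4 were omitted the values were 0.42 (limma adjusted p = 0.0178) and 0.36 (0.041).

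The mRNA ratio of the alpha subunits was therefore higher in S-BM than in the other groups. Per exon length, the HIF1A to EPAS1 ratio was 9.09, 8.08, 9.27 and 8.39 in S-BM 1 to 4, 3.99, 4.22, 5.45 and 5.36 in Lat 1 to 4, 6.49, 4.10, 5.99 and 7.19 in M-BM 1 to 4, and 4.30, 4.43 and 3.78 in Pa 1 to 3. S-BM, at 8.71 ± 0.56, lay above every other library, and Lat (4.76 ± 0.76), M-BM (5.94 ± 1.32) and Pa (4.17 ± 0.34) overlapped. This ratio was chosen after the levels were seen and is given without a test.

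EGLN3 (chromosome 14, 33924227 to 33951074), the hypoxia-inducible prolyl hydroxylase, had the largest difference among the 8 tested hypoxia genes. Only its S-BM level took it past the filter of 10, so its differences from S-BM were in that sense preset. It stood at 20.7, 30.5, 18.1 and 19.7 in S-BM 1 to 4, at 4.6, 4.3, 3.4 and 5.0 in Lat 1 to 4, at 5.0, 6.0, 4.5 and 9.99 in M-BM 1 to 4, and at 36.0, 41.6 and 32.8 in Pa 1 to 3. Pa lay above S-BM and S-BM above Lat and M-BM without overlap, and the highest M-BM library, M-BM 4, was still well below the lowest S-BM library. EGLN3 fell 4.32-fold in Lat (log2 fold change −2.11, SE 0.22, limma adjusted p = 3.92e-06) and 3.21-fold in M-BM (−1.68, SE 0.22, limma adjusted p = 4.34e-05). The differences without S-BM 3 and S-BM 4 were −2.31 and −1.88 (limma adjusted p = 5.84e-05 and 0.000358).

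Neither relative of EGLN3 was called lower. EGLN1, the main oxygen sensor of most cells, was at 94.7 ± 15 in S-BM and rose to 155 ± 16.4 in Lat (log2 fold change 0.71, limma adjusted p = 0.00013) and 141 ± 9.96 in M-BM (0.58, limma adjusted p = 0.000814), and EGLN2 did not pass in either (0.18 and −0.04, limma adjusted p = 0.482 and 0.883). Per exon length EGLN3 was the least abundant of these hydroxylases in each group, at 4.55 against 13.3 for EGLN1 and 23.3 for EGLN2 in S-BM and at 0.894 against 22 and 26.7 in Lat. HIF1AN, the asparaginyl hydroxylase that blocks coactivator binding, was at −0.11 in Lat (limma adjusted p = 0.267) and −0.05 in M-BM (0.593). Among partners, ARNT2 was at 1.78 ± 0.615 in S-BM and rose to 23.7 ± 12.3 in Lat (log2 fold change 3.08, SE 0.28, limma adjusted p = 1.21e-06) and 12.4 ± 2.85 in M-BM (2.28, limma adjusted p = 2.46e-05). At such low levels the pseudocount of 1 understates the change, and the Lat value ran from 2.77 to 3.76 over the 22 alternative analyses. ARNT2 entered the test only through Lat and M-BM, where it was high, so its differences were preset as for EGLN3. Lat 3, at 42.1, stood above the other Lat libraries (17.2 to 18.2). Even so ARNT2 remained below ARNT per exon length, at 3.5 against 13.4 in Lat.

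**Figure D2:**
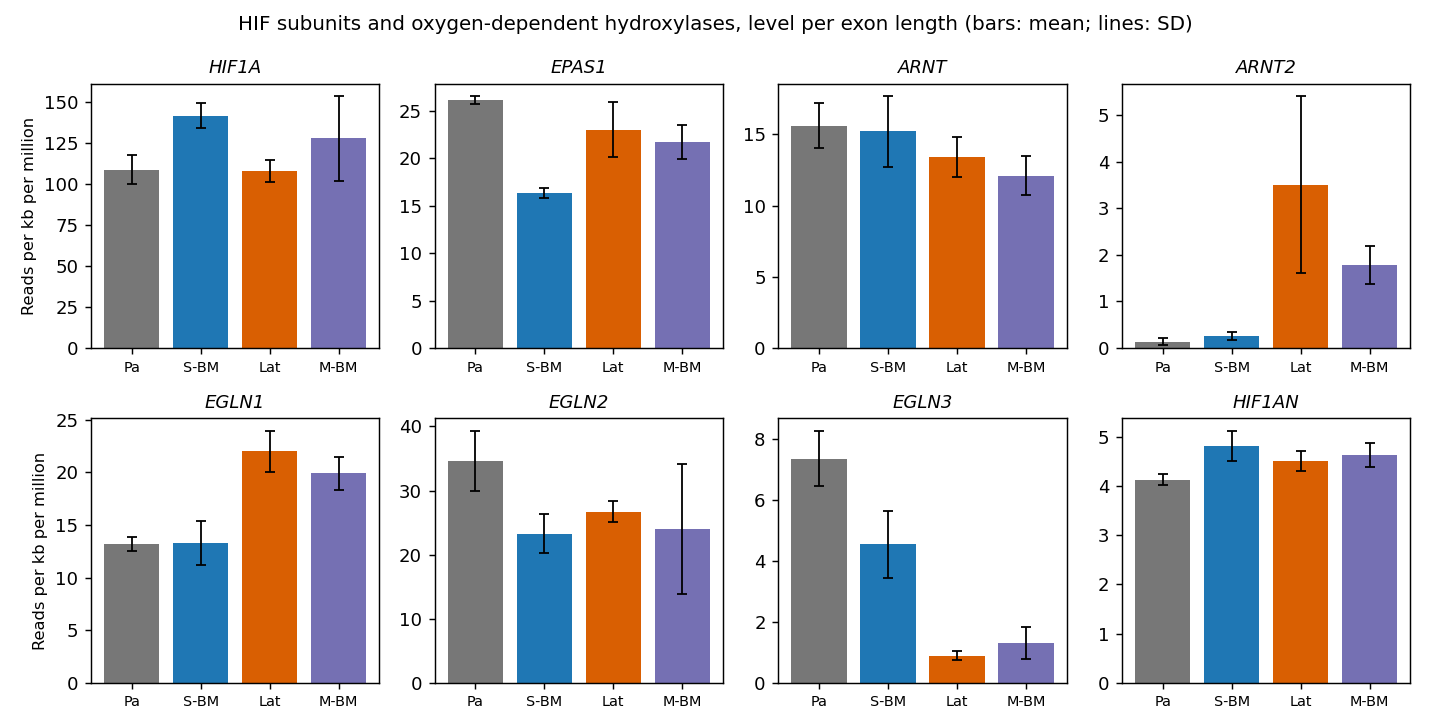
Reads per kilobase of exon and M reads for the HIF subunits HIF1A, EPAS1, ARNT and ARNT2 and for the hydroxylases EGLN1, EGLN2, EGLN3 and HIF1AN in Pa, S-BM, Lat and M-BM; bars are means from 0 and lines are SD. EGLN3 stands at 7.36 in Pa, 4.55 in S-BM and 0.894 in Lat, while EGLN1 stands at 22 in Lat against 13.3 in S-BM.

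Of the 18 genes of the wider HIF system, HIF1A, EPAS1 and EGLN3 among them, 16 were tested, and 3 rose and 5 fell in Lat, 3 rose and 4 fell in M-BM, against S-BM (median log2 fold change −0.08 and −0.05; 0.01 over all genes, of which 59.7% and 52.7% passed). Several of these falls were small. CREBBP, a coactivator, was at −0.34 in Lat (limma adjusted p = 0.0229; not called without S-BM 1, S-BM 2 or Lat 4) and −0.47 in M-BM (0.00465). CUL2, the cullin of the VHL ligase, was at −0.34 in Lat (limma adjusted p = 0.0156), a call lost without S-BM 3 and S-BM 4, and its M-BM call (−0.28, 0.0475) was lost in 14 of 22 alternative analyses. VHL itself was at −0.21 in Lat (limma adjusted p = 0.0484, lost in 15 of 22 alternatives), and ARNT at −0.32 in M-BM (0.0407, lost in 9 of 22). HIF3A was at 0 in all brain-tropic libraries.

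VEGFA (chromosome 6, 43770211 to 43786487), the central growth factor of blood vessels, stood at 173.6, 155.1, 114.6 and 115.7 in S-BM 1 to 4, at 252.9, 252.9, 249.9 and 267.0 in Lat 1 to 4, at 250.4, 189.1, 295.2 and 263.6 in M-BM 1 to 4, and at 82.1, 72.8 and 65.2 in Pa 1 to 3. The groups stepped from Pa to S-BM to the other groups without overlap, and within S-BM the values split with ERBB2, lower in S-BM 3 and S-BM 4. VEGFA rose 1.85-fold in Lat (log2 fold change 0.89, SE 0.15, limma adjusted p = 0.000176) and 1.79-fold in M-BM (0.84, SE 0.15, limma adjusted p = 0.000394) against S-BM. Without S-BM 3 and S-BM 4 it was at 0.64 and 0.58 (limma adjusted p = 0.00353 and 0.00716). VEGFA shares 188 exon bases with an opposite-strand gene, AL136131.3.

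Of the other 9 VEGF ligands and receptors 3 were tested. VEGFC, the lymphatic growth factor, rose from 22.7 ± 7.47 to 43.3 ± 4.3 in Lat (log2 fold change 0.96, limma adjusted p = 0.00184) and 41.2 ± 9.83 in M-BM (0.86, 0.00473). The co-receptor NRP1 fell from 188 ± 13.2 to 85.9 ± 2.62 in Lat (−1.12, limma adjusted p = 0.000677) and 107 ± 37.9 in M-BM (−0.90, 0.00399), and VEGFB did not pass (0.13 and 0.17, limma adjusted p = 0.416 and 0.296). The receptor gene FLT1 had at most 3 reads per library. KDR, the main VEGFA receptor, was low but detected in S-BM, with 12 to 19 reads per library (0.884 ± 0.138), against 0.239 ± 0.361 in Lat and 0.131 ± 0.0468 in M-BM; S-BM did not overlap M-BM, and KDR was below the filter and not tested.

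ADM (chromosome 11, 10305073 to 10307397), which encodes the vasodilator peptide adrenomedullin, stood at 19.8, 18.0, 20 and 24.1 in S-BM 1 to 4, at 51.8, 51.7, 80.7 and 41.4 in Lat 1 to 4, at 40.6, 59.8, 36.3 and 29.7 in M-BM 1 to 4, and at 20.2, 21.8 and 23.7 in Pa 1 to 3. S-BM and Pa overlapped, and all Lat and M-BM libraries were above both. It rose 2.61-fold in Lat (log2 fold change 1.38, SE 0.21, limma adjusted p = 7.74e-05) and 1.93-fold in M-BM (0.95, SE 0.21, limma adjusted p = 0.00187), and without S-BM 3 and S-BM 4 it was at 1.49 and 1.05 (0.000621 and 0.00665). Its paralog ADM2, also called intermedin, rose from 15.2 ± 1.85 to 54.4 ± 5.87 in Lat (3.42-fold, limma adjusted p = 2.93e-07) and 46.2 ± 6.66 in M-BM (2.9-fold, limma adjusted p = 1.4e-06). The receptor CALCRL, which both peptides use, had at most 3 reads in any library.

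ANGPTL4 (chromosome 19, 8364155 to 8374370), a secreted inhibitor of lipoprotein lipase, was at 0 in all 4 S-BM libraries, at 2.6, 1.8, 3.7 and 2.7 in Lat 1 to 4, at 1.0, 1.3, 3.4 and 2.5 in M-BM 1 to 4, and at 0.133, 0.251 and 0.0549 in Pa 1 to 3. It rested on 193 reads in Lat, 171 in M-BM, 7 in Pa and 0 in S-BM. Against the level of 3 reads per S-BM library (mean 0.181), Lat was at least 14.9-fold higher and M-BM at least 11.3-fold higher. ANGPTL4 lay below the filter of 10; in a fit with a filter at 1, where 57.9% and 50.9% of 12855 genes passed, it passed in Lat (log2 fold change 1.86, SE 0.23, limma adjusted p = 1.66e-05) and in M-BM (1.53, SE 0.23, limma adjusted p = 0.000129). ANGPTL4 passed that filter only through Lat and M-BM, so these differences too were preset, and their fitted size depends on the pseudocount, since S-BM is at 0. None of the other 5 angiopoietin-like genes listed passed the filter of 10.

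CA9 (chromosome 9, 35673928 to 35681159), often used as a marker of hypoxic tumor tissue, was not detectable above counting noise. It had 1 read over the 4 S-BM libraries, 4 over Lat, 4 over M-BM and 0 over Pa, with at most 3 in any library, and it was not tested. Of the 12 other carbonic anhydrases listed, 1 was tested, the mitochondrial CA5B, at 9.7 ± 1.15 in S-BM, which rose to 13.8 ± 1.15 in Lat (log2 fold change 0.47, limma adjusted p = 0.00415) and stood at 11.9 ± 0.535 in M-BM (0.27, not passing, limma adjusted p = 0.0695). CA12, another hypoxia-associated surface enzyme, had a mean of at most 0.667 in any group, that of Pa.

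NDRG1 (chromosome 8), a protein induced by stress and differentiation, varied widely between the libraries of Lat and of M-BM. It stood at 13.4, 11.9, 14.9 and 16.5 in S-BM 1 to 4, at 15.7, 13.8, 85.6 and 25.6 in Lat 1 to 4, at 31.6, 16, 52.3 and 38.3 in M-BM 1 to 4, and at 26.8, 23.3 and 27.0 in Pa 1 to 3. Lat 3 was far above the other Lat libraries, and both Lat and M-BM overlapped S-BM. The difference did not pass in Lat (log2 fold change 0.86, SE 0.46, limma adjusted p = 0.117), and leaving out Lat 3 brought it to 0.31 (0.409). In M-BM it just missed the threshold (1.12, SE 0.46, limma adjusted p = 0.0521); it passed without Lat 3 (adjusted p = 0.00554), without Lat 2 (0.0449) and without M-BM 2 (1.44, 0.0201). With the replicate number as a block NDRG1 passed in both (adjusted p = 0.0312 and 0.0105), and in Lat it also passed with edgeR (1.32, adjusted p = 0.039) and DESeq2 (1.32, 0.0402). NDRG3, the other tested gene of the family, was at 0.19 and −0.06 (limma adjusted p = 0.155 and 0.668) and was called in Lat without S-BM 3 and S-BM 4 (0.36, 0.0213). NDRG2 was highest in Pa, at 40.7 ± 6.12 (n = 3), against S-BM 11.4 ± 2.77, Lat 5.51 ± 0.994 and M-BM 8.61 ± 0.439, untested.

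BNIP3 (chromosome 10, 131967684 to 131981923) stood at 22.8, 22.1, 19.6 and 18.8 in S-BM 1 to 4, at 30.8, 31.6, 28.2 and 29.6 in Lat 1 to 4, at 23.5, 29.5, 27.8 and 29.6 in M-BM 1 to 4, and at 15.6, 14.6 and 11.6 in Pa 1 to 3. The steps from Pa to S-BM to the other groups did not overlap, although M-BM 1 was close to S-BM 1. BNIP3 rose 1.42-fold in Lat (log2 fold change 0.51, SE 0.10, limma adjusted p = 0.000739) and 1.31-fold in M-BM (0.39, SE 0.10, limma adjusted p = 0.00605); without S-BM 3 and S-BM 4 the Lat call held (0.40, limma adjusted p = 0.015) and the M-BM call was lost (0.28, 0.0764). BNIP3 has processed pseudogenes, so its level is uncertain to the extent that reads were shared with them.

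Of 8 mitophagy genes tested besides BNIP3, 1 rose and 5 fell in Lat, where 59.7% of all genes tested passed (30.2% higher, 29.4% lower), and 1 rose and 2 fell in M-BM, where 52.7% passed (26.9% and 25.8%). FUNDC1, a mitophagy receptor also linked to hypoxia, rose (log2 fold change 0.63 and 0.52, limma adjusted p = 0.000528 and 0.00248). The receptor FKBP8 fell (−0.75 and −0.59, limma adjusted p = 0.000113 and 0.00102). The adaptor OPTN fell as well (−0.84 and −0.80, limma adjusted p = 0.00376 and 0.00611), but not without S-BM 3 and S-BM 4 (−0.41 and −0.38, 0.0713 and 0.106). BNIP3L, the close relative of BNIP3, was at −0.31 in Lat (limma adjusted p = 0.037, lost in 10 of 22 alternatives) and −0.18 in M-BM (0.216). Without S-BM 3 and S-BM 4 the list, BNIP3 included, had 2 genes higher and 2 lower in Lat, and 1 higher and 1 lower in M-BM.

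P4HA1 (chromosome 10, 73007217 to 73096866) stood at 74.2, 66.9, 93.6 and 90.1 in S-BM 1 to 4, at 39.2, 38.3, 42.2 and 35.2 in Lat 1 to 4, at 42.5, 36.6, 41.0 and 55.2 in M-BM 1 to 4, and at 90.3, 81.5 and 90.7 in Pa 1 to 3. S-BM 3 and S-BM 4 were the highest S-BM libraries, the reverse of VEGFA, and all Lat and M-BM libraries were below all S-BM and Pa libraries. P4HA1 fell 2.05-fold in Lat (log2 fold change −1.04, SE 0.13, limma adjusted p = 2.03e-05) and 1.84-fold in M-BM (−0.88, SE 0.13, limma adjusted p = 0.000125). It was at −0.85 and −0.69 without S-BM 3 and S-BM 4 (limma adjusted p = 0.000553 and 0.00284). P4HA1 shares 47 exon bases with an opposite-strand gene, AL731563.2. Among the 9 collagen prolyl and lysyl hydroxylases and partners tested, P4HA1 included, 4 fell and 0 rose in each comparison; of all genes tested 29.4% fell and 30.2% rose in Lat, and 25.8% fell and 26.9% rose in M-BM. CRTAP, a partner of the prolyl 3-hydroxylase, fell (−1.22 and −1.03, limma adjusted p = 4.09e-06 and 2.99e-05), as did the lysyl hydroxylase PLOD3 (−0.62 and −0.56, 6.2e-05 and 0.000191) and LEPRE1 (−0.65 and −0.38, 0.00128 and 0.0371, the second lost in 9 of 22 alternatives). The alternative catalytic subunit P4HA2 did not pass (−0.19 and 0.12, limma adjusted p = 0.389 and 0.581), but it was called in M-BM without S-BM 3 and S-BM 4 (0.52, 0.00758), which left 1 gene higher and 3 lower there.

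**Figure D3:**
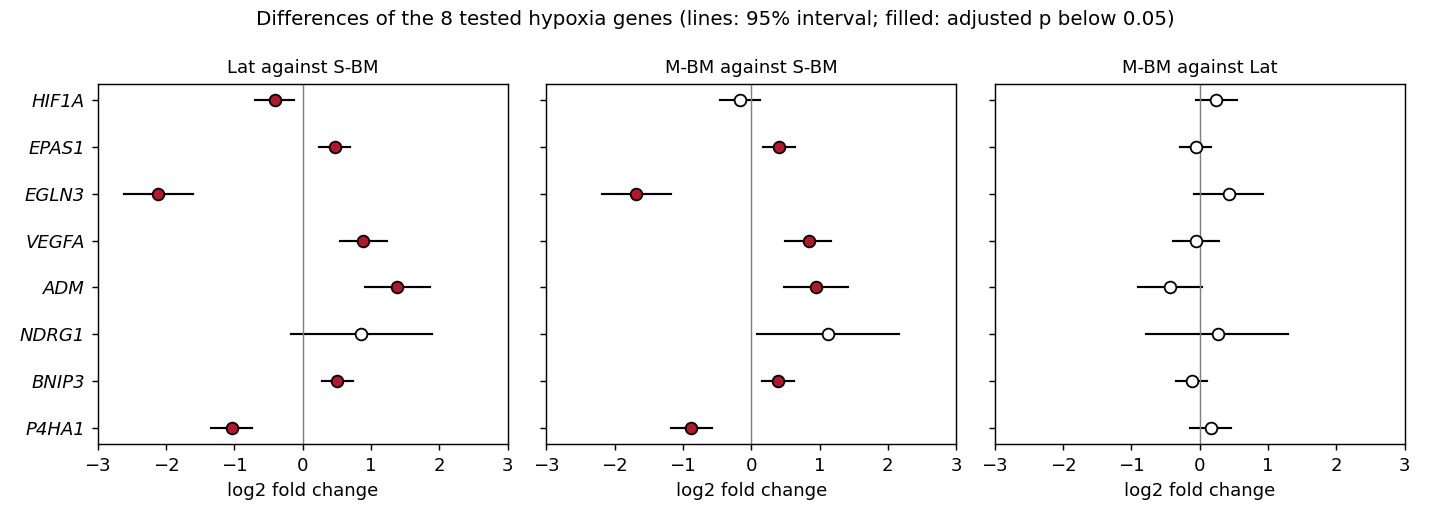
Log2 fold change of the 8 tested hypoxia genes in Lat against S-BM, M-BM against S-BM and M-BM against Lat. Lines are 95% intervals built from the limma SE with 9 residual degrees of freedom, and filled points have a limma adjusted p below 0.05. EGLN3 (−2.11 and −1.68) and ADM (1.38 and 0.95) lie farthest from 0 on either side among the points that passed, and no point in the third panel is filled.

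The libraries of Lat and S-BM did not overlap for 7 of the 8 tested hypoxia genes, against 54.5% of all genes, and those of M-BM and S-BM for 6 of 8, against 46.2%. Between M-BM and Lat, 0 of 8 passed with limma (0.145% of all genes did, 0.0933% higher and 0.0518% lower), 0 had an unadjusted p below 0.05, and 0 passed with edgeR or DESeq2; the libraries overlapped for all 8, while 7.3% of all genes did not overlap. The 95% intervals of the log2 difference, built from the limma SE with 9 residual degrees of freedom, show how much could have gone unseen. They ran from −0.39 to 0.28 for VEGFA, from −0.29 to 0.17 for EPAS1, from −0.35 to 0.11 for BNIP3 and from −0.14 to 0.46 for P4HA1. They were wider for EGLN3 (0.43, interval −0.08 to 0.93), ADM (−0.43, −0.91 to 0.04) and NDRG1 (0.26, −0.78 to 1.29), and HIF1A stood at 0.24 (−0.05 to 0.54). ANGPTL4 was at −0.33 in the fit with a filter at 1 (limma adjusted p = 0.662), where 0.202% of genes passed.

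Set beside the parental line, which is described without a test, the hypoxia genes followed different orders. VEGFA and BNIP3 were lowest in Pa, intermediate in S-BM and highest in Lat and M-BM: on the log2(value + 1) scale VEGFA was above Pa by 0.90 in S-BM, by 1.79 in Lat and by 1.74 in M-BM, and BNIP3 by 0.55, 1.06 and 0.94. ADM and P4HA1 in S-BM were close to Pa (−0.10 and −0.12, libraries overlapping), whereas Lat and M-BM were apart from it, ADM by 1.29 and 0.85, and P4HA1 2.23-fold and 1.99-fold lower. EGLN3 was below Pa in all 3 groups, by −0.72, −2.83 and −2.41, which is 7.13-fold in Lat. EPAS1 was also below Pa in all 3, by −0.71, −0.24 and −0.30, with S-BM the farthest. HIF1A was 0.35 above Pa in S-BM and overlapped it in Lat (−0.06) and M-BM (0.18), and NDRG1 was 0.82 lower in S-BM than in Pa and overlapped Pa in the other groups. In each group 6 of the 8 genes did not overlap Pa, 3 higher and 3 lower, against 42.5% of all genes in S-BM (22.2% higher, 20.3% lower), 71.3% in Lat (36.3% and 35%) and 66.5% in M-BM (34.6% and 31.9%).

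Further hypoxia-inducible genes moved in both directions. Of 41 tested genes in a list of 51, 14 rose and 15 fell in Lat (median log2 fold change −0.04), where 30.2% of all genes tested rose and 29.4% fell. In M-BM 15 rose and 14 fell (−0.02), where 26.9% of all genes rose and 25.8% fell, so the counts do not set the list apart. Without S-BM 3 and S-BM 4 the counts were 14 and 14 in each comparison. The largest rises whose libraries did not overlap were those of the nuclear receptor RORA (S-BM 2.48 ± 1.2, Lat 18.5 ± 1.49, M-BM 17 ± 3.24; limma adjusted p = 7.97e-07 and 2.41e-06, tested only through its Lat and M-BM levels), the secreted glycoprotein STC2 (84.1 ± 27.2, 405 ± 53.8 and 340 ± 80.3 in the same order) and the transcription factor MAFF (17.8 ± 4.44, 74.7 ± 11.6 and 63.3 ± 8.57). The largest falls were those of TMEM45A (55.6 ± 21.9, 11.1 ± 3.11 and 14.5 ± 7.92; limma adjusted p = 0.000193 and 0.00062), the mitochondrial adenylate kinase AK4 (109 ± 17, 35.9 ± 7.76 and 49.6 ± 7.88) and the atypical cyclin CCNG2 (73.6 ± 14.5, 24.8 ± 3.48 and 32 ± 7.97). AK4 and CCNG2 were highest in Pa, at 177 ± 16.8 and 118 ± 7.67 (n = 3), as EGLN3 was.

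Among 16 tested HIF targets in glucose handling 4 rose and 4 fell in Lat (median 0.06), and 4 rose and 2 fell in M-BM (0.14), shares called that lie below the 59.7% and 52.7% of all genes. Without S-BM 3 and S-BM 4 there were 2 rises and 3 falls in Lat, and 4 and 1 in M-BM. PFKFB4, an enzyme that tunes glycolytic flux, fell 2.4-fold in Lat (log2 fold change −1.26, limma adjusted p = 5.64e-05) and 1.7-fold in M-BM (−0.76, 0.00337; 0.0553 without S-BM 3 and S-BM 4), and the aldolase ALDOA fell in both (−0.48 and −0.34, limma adjusted p = 9.85e-05 and 0.00176). PFKFB3 fell in Lat (−0.67, limma adjusted p = 0.00208). Among rises, PDK1, which restrains pyruvate oxidation in mitochondria, was at 0.31 in Lat (limma adjusted p = 0.0117). TPI1 was at 0.38 in M-BM (limma adjusted p = 0.00887), and both calls were lost without S-BM 3 and S-BM 4. Larger rises with overlapping libraries, named after their values were seen, were those of hexokinase HK2 (0.56 and 0.62, limma adjusted p = 0.0307 and 0.0212) and the phosphofructokinase PFKP (0.51 and 0.58, 0.0412 and 0.0246). Without S-BM 3 and S-BM 4 HK2 lost both calls (0.39 and 0.45, limma adjusted p = 0.22 and 0.168), whereas PFKP was at 0.85 and 0.92 (0.00377 and 0.00287); its calls were lost in 7 of 22 alternatives in Lat and 4 of 22 in M-BM. The glucose transporter SLC2A1 was at 0.35 in M-BM (limma adjusted p = 0.031), a call lost without S-BM 2, M-BM 1 or M-BM 3. No gene of any of these lists passed between M-BM and Lat, with the exception of 1 of the 41 hypoxia-inducible genes when S-BM 2 was left out.

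**Figure D4:**
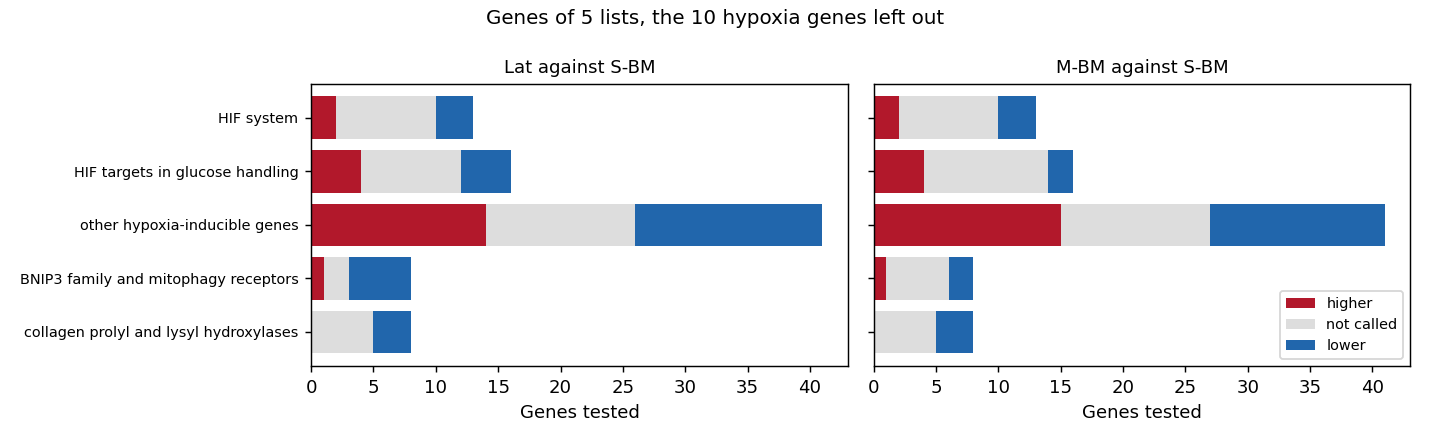
Number of tested genes that were higher, lower or not called (limma, adjusted p below 0.05) in Lat and in M-BM against S-BM, for 5 lists from which the 10 hypoxia genes were left out. Rises and falls are both present in 4 of the lists, with 14 against 15 among 41 hypoxia-inducible genes in Lat, and the collagen hydroxylase list holds falls only.

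The genes whose pattern over the 12 brain-tropic libraries was most like each hypoxia gene were found by the root mean square difference of centred log2 values, among 1516 or 1517 tested genes with an SD of at least 0.5. For P4HA1 (SD 0.51) they were BICC1, SPATS2L and PPIC, at differences of 0.10, 0.121 and 0.125. For EGLN3 (SD 1.00) they were IKZF2, BAMBI and SOX4 (0.146, 0.150 and 0.170), and for VEGFA (SD 0.48) FAM200B, ZHX1-C8ORF76 and POLR2D (0.135, 0.140 and 0.147). PARD6B and CDCA5 were nearest to ADM (SD 0.68; 0.200 and 0.205), and ROS1, DAPP1 and HDAC9 to NDRG1 (SD 0.87; 0.380, 0.402 and 0.458). HIF1A, EPAS1 and BNIP3 had an SD of 0.25 each, and their nearest candidates were at 0.273, 0.281 and 0.279. Since candidates needed an SD of at least 0.5, none could come much closer to these genes. Their distances therefore do not show whether other genes share their patterns. None of the 8 tested hypoxia genes was among the nearest of another, although HIF1A, EPAS1, VEGFA and BNIP3 had too small an SD to be candidates; CA9 and ANGPTL4 were not compared.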

How the data were processed

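The deposited values are signal on a normalized count scale, with 1 column for each library; the authors brought library totals close together, and how they did so is not given in the sources used here. Per the submitters' processing notes, the tools and build included Bowtie 0.12.2 and GRCh38; no counter or annotation is given in the sources used here. Total RNA came from RNeasy extraction and TruSeq v2 libraries, per the labels' protocols. The 12 brain-tropic libraries are in 1 table and Pa in another, so tests were made only within the first.

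Every value was a whole multiple of a library's step within 0.05 reads, which gave reads per gene (100% of values whole). Of the names, 27 had been turned into dates and stayed out of named results. The 12 libraries were fitted together with limma 3.58.1 (R 4.3.3) on log2(value + 1), pseudocount 1, with a variance trend, 9 residual degrees of freedom, two-sided tests and Benjamini-Hochberg adjustment at 0.05 over all 9646 genes tested. edgeR 4.0.16 on the recovered reads called 5748 genes in Lat against S-BM, 5072 in M-BM against S-BM and 12 in M-BM against Lat; DESeq2 1.42.0 called 5903, 5315 and 141. The code was tested on simulated data.

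The labels number the libraries 1 to 4 in each group, with no statement that a number pairs them; the check is given with the processing alternatives. Alternatives were the other tools, filters, pseudocount 0.1, quantile normalization, fits of 2 groups, a replicate block and libraries left out. The 10 genes and all lists were chosen with earlier results of these data known. Every hypoxia gene is named; other genes are named if they belong to the HIF system or a member's family, or are among the 3 largest called changes per list, direction and comparison with non-overlapping libraries. Per-length levels used GENCODE exon lengths on GRCh38, and promoter windows came from RefSeq on GRCh38.p14. Lists were described by counts and medians only.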

Additional observations from a re-analysis of the deposited data

Results flagged for a closer look

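Groups of 4 libraries were searched for a library whose gap to its nearest neighbour exceeded Dixon's 95% critical share of the group's range, over 107 groups of 37 genes; chance gives about 1 in 20 such groups, and 8 were found. Among the 10 hypoxia genes this was NDRG1 in Lat 3, at 85.6, while the other Lat libraries lay between 13.8 and 25.6. ARNT2, the alternative HIF partner, was high in the same library, at 42.1 against 17.2 to 18.2, as was the mitophagy receptor FUNDC1, at 55.4 against 49.5 to 50.3. In S-BM 2, CCNG2 was high at 95.4 against 65.3 to 67.1. SLC2A1 was low there at 78.2 against 108 to 113, MAFF at 11.2 against 19.6 to 20.5, and ARNT2 at 0.86 against 1.99 to 2.15. LEPRE1 in M-BM 2 was at 10.1 against 12.4 to 12.5.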

How the results depend on the processing

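Over 22 alternatives, each of the calls against S-BM for EPAS1, EGLN3, VEGFA, ADM and P4HA1 kept its direction and its adjusted p below 0.05; HIF1A in Lat lost its call in 1 (closest pairs averaged, adjusted p = 0.052), BNIP3 in M-BM in 1 (S-BM 3 and S-BM 4 left out, 0.0764), and NDRG1 gained a call in 3 alternatives for Lat and in 6 for M-BM. The number of tested hypoxia genes called stayed between 6 and 8 in Lat, between 5 and 7 in M-BM and at 0 between M-BM and Lat. The log2 fold change of ANGPTL4 ran from 1.74 to 8.65 in Lat and from 1.33 to 8.25 in M-BM, called in 21 of 21 fits that held it. With the filter at 1 ANGPTL4 entered only through Lat and M-BM, so those calls were preset. The count of all genes called between M-BM and Lat, 14, was 141 with DESeq2, 26 with a filter at 1, 24 with no filter, 5 with only these groups in the fit, 3 with the closest pairs averaged, and 3 to 30 when 1 library was left out (3 without Lat 1, Lat 2 or M-BM 4, 6 without M-BM 3, 30 without M-BM 1); the cause was not tested. The share of higher genes among these calls was 64.3%, 75% with edgeR, 68.8% with quantile normalization and 56.7% with DESeq2. Libraries with the same replicate number had residual correlations of −0.272 to 0.319 (4 of 12 pairs above 0.1), other pairs −0.305 to 0.322 (7 of 36). The ranges were alike, although the share above 0.1 was larger for the same number, and the numbers were not taken to pair libraries. With the replicate block 5675, 5002 and 13 genes and 8, 7 and 0 hypoxia genes were called. If the closest library pairs come from 1 culture, p-values are too small. CA9 and ANGPTL4 in S-BM and Pa rest on at most 4 reads per library.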
